A study of Arabidopsis thaliana with 9 samples.

Results

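The cysteine-rich receptor-like kinases (CRKs) of Arabidopsis thaliana were described across 3 groups of plants: control, cold once and repeated cold. Members were the genes of the deposited table whose name was CRK followed by a number and whose protein description contained the words cysteine-rich. The rule found 40 of the 25320 genes in the table, under 39 names, because the name CRK34 stood on neighbouring genes, AT4G11521 and AT4G11530, which are called here by their locus identifiers. A further 7 genes with CRK names were left out, since their descriptions were those of CDPK-related kinases, a different family with the same abbreviation. EMB1290 (CRK17), AT4G11890 (CRK45, also ARCK1) and RKF2 (CRK1) belong to the family but carry other names in the table and lie outside the rule.

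CRKs are single-pass membrane proteins of plants, with an outer part made of cysteine-rich DUF26 domains and an inner kinase domain. They form one of the largest groups of receptor-like kinases in Arabidopsis and are known for roles in pathogen defence, in responses to reactive oxygen outside the cell and in cell death. Many are induced by salicylic acid, a defence hormone, and CRK5, CRK6, CRK10 and CRK11 were described early as candidate targets of WRKY transcription factors, which bind the W-box, a short DNA motif.

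RNA was sequenced from stems and leaves of wild-type seedlings grown in soil, given as 2 weeks old, with 3 libraries per group. Control plants (day 0) stayed at room temperature or were taken ahead of any stress. A cold cycle meant 4 °C for 6 h followed by a recovery of 18 h at room temperature. Plants of the cold-once group (day 1) had 1 such cycle, while those of the repeated-cold group (day 4) had 4. The treatment text also names 0 °C for 6 h after the cycles and does not say on which side of that step the plants were sampled. Day, plant age and treatment differed together between the groups and cannot be told apart. The labels do not state separate cultures for the replicates, and the p-values then measure only how far these samples spread, which may be technical. The number of plants behind a library is not stated. Levels are FPKM, that is fragments per kilobase of gene length that are scaled for the number of fragments in the library, so levels of different genes can be compared per length. Changes are differences of group means of log2(FPKM + 1) with their standard error (SE), and adjusted p-values come from limma's moderated test with Benjamini-Hochberg adjustment over 17740 genes. A gene was called at an adjusted p under 0.05. The log2(FPKM + 1) scale understates the change of genes with low levels.

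Depth ranged from 20.05 to 21.49 M reads over the control libraries, from 20.18 to 20.48 M over those of cold once and from 17.98 to 20.78 M over those of repeated cold. The labelled tissue was checked with marker genes. The 7 leaf mesophyll markers, photosynthesis genes such as RBCS1A, were high in every library. They summed to 32400 to 34400 FPKM in control, 38700 to 44100 FPKM in cold once and 36700 to 44000 FPKM in repeated cold. RBCS1A was called higher and LHCA3 lower in both cold groups than in control. The flower markers SEP1, SEP2, SEP3, AP1, AP3, PI and AG summed to 9.43, 22.4 and 42.5 FPKM in control, to 1.81, 7.7 and 5.51 FPKM in cold once and to 0.974, 28.7 and 1.39 FPKM in repeated cold, so flower RNA differed between libraries of 1 group. Every cold-once sum also lay below every control sum, while repeated cold overlapped control. Of 7 root markers, 4 were in the table and summed to between 10.8 and 63.6 FPKM. BGLU23 made up most of these sums, at 9.76 to 62.8 FPKM, while COBL9 and IRT1 reached at most 0.167 and 0.0624 FPKM. NRT2.1 averaged 1.31 FPKM in cold once and 1.28 FPKM in repeated cold, against 0.138 FPKM in control. It was called higher in both (adjusted p = 0.00557 and 0.0117). The 4 guard cell markers summed to 77.5 to 89.6 FPKM in cold once and 63.0 to 92.4 FPKM in repeated cold, against 35.9 to 57.3 FPKM in control. GC1 made up most of that difference. It averaged 52.0 FPKM in cold once and 46.4 FPKM in repeated cold, against 18.1 FPKM in control, and was called higher in both. MYB60 was also called higher in both cold groups (adjusted p = 0.00176 and 0.00344), and FAMA in repeated cold only (adjusted p = 0.0136). KAT1 averaged 9.05 and 6.87 FPKM in the cold groups, against 10.5 FPKM in control, and was not called. The seed marker OLEO1 was at or below 0.06 FPKM. In such bulk samples, fewer cells of a type and less RNA per cell cannot be told apart.

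The family was concentrated on chromosome 4, where 36 of the 40 genes lay. Joining members less than 25 kb apart gave 5 tandem clusters, which held 32 members, and left 8 members alone. The cluster on chromosome 4 from 12117491 to 12191704 (TAIR10.1) spanned 74.2 kb and held 19 members, CRK5 to CRK16 and CRK18 to CRK24. A cluster of 5 (CRK30, CRK31, CRK32, AT4G11521 and AT4G11530) spanned 26.3 kb, and a cluster of 4 (CRK36 to CRK39) spanned 30.6 kb. CRK28 and CRK29 were neighbours on chromosome 4, as were CRK2 and CRK3 on chromosome 1. Tandem copies are similar in sequence, and how the authors treated reads that match several copies is not given in the sources used here, so the split of reads between close copies is uncertain. CRK10 and CRK11 overlap on opposite strands and CRK28 and CRK29 on the same strand, and CRK16, CRK25 and CRK42 each overlap a gene outside the member set. Whether counting used the strand is not stated, so reads in these overlaps cannot be assigned to 1 gene with certainty. The table's Pfam annotation named a kinase domain for all members except 3. CRK9 and AT4G11521 were listed with the DUF26 domain (Stress-antifung), and CRK8 with a reverse transcriptase domain. The annotation gave 1 domain name per gene, so it does not show that these genes lack other domains.

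The sequence before each gene was read to show what members share that their names do not use. In the 250 bases upstream of the gene start, the W-box core TTGAC, searched on both strands, occurred in 30 of 40 members (75.0%), against 44.7% of the 25093 windows of all genes. At least 2 copies occurred in 17 members (42.5%), against 14.0% of all windows. CRK11 had 6 copies, the most of any member. Other motifs searched on both strands each occurred in only 1 to 3 of the 40 member windows, a smaller share than in all windows but one that rests on few genes. The CRT/DRE core CCGAC, bound by the cold-induced CBF factors, occurred in 2.5% of member windows and 12.2% of all windows. The evening element AAATATCT occurred in 2.5% and 4.89%, the G-box CACGTG in 2.5% and 6.85%, and the CGCG-box core CGCG, bound by CAMTA factors, in 7.5% and 10.6%. These shares are a description with no test, tandem copies share ancestry, and 7 member windows run into another gene. A match is not a binding site, and a window without a match says only that these letters are not in it.

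**Figure D1:**
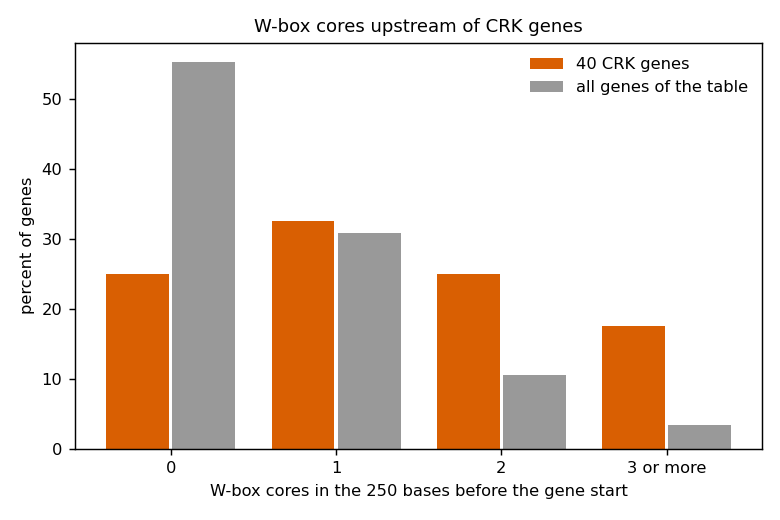
Percent of genes (vertical axis) by the number of W-box cores (TTGAC, both strands) in the 250 bases before the gene start (horizontal axis), for the 40 CRK genes and for all genes of the table. No core was found for 25% of CRK genes and 55.3% of all genes, and 3 or more for 17.5% and 3.33%.

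The windows of 6 members are shown 5′ to 3′ on the strand of the gene, read from TAIR10.1, with each W-box core in capitals (TTGAC, or GTCAA where it lies on the other strand). CRK5, CRK6 and CRK11 stand for early described salicylic acid genes of the large cluster and CRK37 for the CRK36 cluster, while CRK3 and CRK21 had no core and were called in both comparisons with control. They lie at chr4:12120221-12120470 (CRK5, minus strand), chr4:12121119-12121368 (CRK6, plus strand), chr4:12143859-12144108 (CRK11, minus strand), chr4:2238120-2238369 (CRK37, plus strand), chr1:26591777-26592026 (CRK3, minus strand) and chr4:12180937-12181186 (CRK21, minus strand).
CRK5: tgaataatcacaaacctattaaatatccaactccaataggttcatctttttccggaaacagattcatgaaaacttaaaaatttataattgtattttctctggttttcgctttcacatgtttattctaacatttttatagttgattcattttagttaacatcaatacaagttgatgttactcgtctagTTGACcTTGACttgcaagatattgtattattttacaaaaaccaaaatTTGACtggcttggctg
CRK6: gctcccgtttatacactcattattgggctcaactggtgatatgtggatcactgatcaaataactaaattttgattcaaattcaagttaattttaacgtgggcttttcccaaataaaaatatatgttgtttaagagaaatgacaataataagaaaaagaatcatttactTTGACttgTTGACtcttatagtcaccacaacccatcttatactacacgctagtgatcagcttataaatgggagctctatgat
CRK11: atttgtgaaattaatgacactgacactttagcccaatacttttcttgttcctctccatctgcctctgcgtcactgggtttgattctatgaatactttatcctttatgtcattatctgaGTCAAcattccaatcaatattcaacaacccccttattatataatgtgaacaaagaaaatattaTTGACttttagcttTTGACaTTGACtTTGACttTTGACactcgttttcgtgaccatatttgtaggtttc
CRK37: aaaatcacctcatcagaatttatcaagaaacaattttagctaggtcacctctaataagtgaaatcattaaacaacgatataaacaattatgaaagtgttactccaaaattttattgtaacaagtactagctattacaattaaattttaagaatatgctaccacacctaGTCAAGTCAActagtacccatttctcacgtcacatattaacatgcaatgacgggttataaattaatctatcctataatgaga
CRK3: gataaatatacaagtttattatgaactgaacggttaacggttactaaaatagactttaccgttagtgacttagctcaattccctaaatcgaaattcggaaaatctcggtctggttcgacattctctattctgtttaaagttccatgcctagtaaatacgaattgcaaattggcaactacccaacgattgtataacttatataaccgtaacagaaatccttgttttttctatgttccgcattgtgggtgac
CRK21: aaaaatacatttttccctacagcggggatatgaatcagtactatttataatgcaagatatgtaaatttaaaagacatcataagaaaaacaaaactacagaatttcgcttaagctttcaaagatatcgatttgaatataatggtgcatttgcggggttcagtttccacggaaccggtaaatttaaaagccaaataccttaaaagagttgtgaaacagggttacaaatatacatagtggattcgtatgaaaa
In CRK5 and CRK6 a pair of cores lay close together, in CRK37 the cores were adjacent on the other strand, and in CRK11 a run of cores lay within the last part of the window. Among the 12 members called lower in either comparison with control, 9 had a core. Among the 2 called higher, CRK42 had a core and CRK21 had none. Of the 16 tested members that were called in no comparison, 11 had a core, as did 9 of the 10 members with low levels.

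Of the 40 members, 30 reached 1 FPKM in at least 3 of the 9 libraries and were tested. CRK4, whose overexpression triggers cell death resembling the hypersensitive response, was the most abundant at a mean of 57.1 FPKM over all libraries. CRK10 followed at 53.8 FPKM and CRK40 at 35.1 FPKM, and together these 3 genes made up 36.0% of the summed level of the family. CRK4 had 67.0, 45.0 and 54.7 FPKM in control, 67.6, 21.9 and 34.5 FPKM in cold once and 108.0, 63.1 and 51.2 FPKM in repeated cold. Its groups overlapped in every pair, and it was not called. CRK40 had 36.8, 29.1 and 30.5 FPKM in control, 51.3, 29.5 and 39.0 FPKM in cold once and 43.8, 23.7 and 32.2 FPKM in repeated cold, which also overlapped. Over the 40 members the summed level averaged 445 ± 81.9 FPKM in control, 336 ± 115 FPKM in cold once and 437 ± 128 FPKM in repeated cold (SD, n = 3 each), so the group means lay within the spread of the libraries. The cold-once mean was the lowest of the 3 group means in 20 of the 30 tested members and the highest in 4. That order was not counted over all tested genes, and the members moved together between libraries, as described below.

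The 10 members that failed the filter were CRK8, CRK20, CRK25, CRK26, CRK27, CRK30, CRK31, CRK32, CRK39 and CRK43. CRK20, whose overexpression also triggers cell death, had 1.01, 0.33 and 0.47 FPKM in control, 0.422, 0.0462 and 0.0465 FPKM in cold once and 0.438, 0.237 and 0.319 FPKM in repeated cold. CRK43 was listed at 0 in all libraries but control library 1, which had 0.0743 FPKM. CRK25 was listed at 0 in all 3 cold-once libraries and reached at most 0.0857 FPKM elsewhere. A value of 0 allows up to 3 reads, which is 0.1396 to 0.1669 FPKM for a gene of 1 kb, a limit that covers counting error only. CRK30 had 0.462, 0.455 and 0.538 FPKM in cold once and 0.243, 0.135 and 0.253 FPKM in repeated cold, against 0.113, 0.0808 and 0.0191 FPKM in control. Without the filter on low levels CRK30 was called higher in cold once. It was singled out after its values were seen.

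Cold once was compared with control to see which family members differed after 1 cycle. Of the 30 tested members, 10 were lower and 2 were higher (33.3% and 6.67%), while 33.6% of all tested genes were called lower and 18.7% higher, 52.3% in either direction. The share of members that fell was thus close to that of all genes, and the share that rose was lower. The median change of the tested members was -0.50 on the log2 scale, against -0.16 over all tested genes. Their changes ran from -1.52 to 1.15. By the unadjusted p, 14 members lay under 0.05, against 58.3% of all tested genes. The libraries of both groups did not overlap for 12 members that were lower and 2 that were higher, against 40.6% and 24.0% of all tested genes.

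Members with known parts in cell death and immunity were among those that fell. CRK5, which acts in cell death, senescence and stomatal responses and whose upstream window is printed above, had 5.46, 1.52 and 2.11 FPKM in cold once, against 12.3, 6.75 and 10.7 FPKM in control. All cold-once libraries lay below all control libraries, and the change was -1.52 (SE 0.37, adjusted p = 0.00701). CRK19, another gene whose overexpression triggers cell death, had 14.0, 5.41 and 9.29 FPKM in cold once, against 30.4, 23.6 and 25.7 FPKM in control, a change of -1.46 (SE 0.29, adjusted p = 0.00275). CRK29, a relative of CRK28 that is induced by flagellin, had 1.51, 1.4 and 1.73 FPKM in cold once, against 4.16, 3.39 and 3.35 FPKM in control. Its change was -0.86 (SE 0.19, adjusted p = 0.00463), again without overlap. CRK2, which works with the NADPH oxidase RBOHD in the production of reactive oxygen, had 22.5, 12.3 and 16.7 FPKM in cold once, against 27.9, 23.6 and 25.7 FPKM in control. It fell by 0.59 (SE 0.19, adjusted p = 0.0253), and its highest cold-once library lay just below its lowest control library. The call of CRK2 was lost without control library 1 (adjusted p = 0.0801) or 3 (adjusted p = 0.0634) and without cold-once library 2 (adjusted p = 0.0712) or 3 (adjusted p = 0.061).

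CRK3, the neighbour of CRK2, fell more. It had 9.1, 4.71 and 7.09 FPKM in cold once, against 23.6, 18.1 and 21.4 FPKM in control, a change of -1.5 (SE 0.22, adjusted p = 0.000526). AT4G11521 is the short CRK34 gene for which no kinase domain was listed. It had 4.53, 2.44 and 3.7 FPKM in cold once, against 10.1, 9.8 and 10.4 FPKM in control. Its change of -1.31 (SE 0.17, adjusted p = 0.000295) had the smallest adjusted p of the family. The adjoining AT4G11530, which has a kinase domain, had 1.38, 0.768 and 1.53 FPKM in cold once, against 2.1, 2.03 and 1.75 FPKM in control, and was not called (adjusted p = 0.125). Of the genes named CRK34, the one with no listed kinase domain was thus the one called.

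In the large cluster 6 of the 17 tested members fell and 1 rose (35.3% and 5.88%), so the share that fell was again close to the 33.6% of all tested genes. CRK18 had 14.8, 10.8 and 9.96 FPKM in cold once, against 32.7, 22.9 and 25.3 FPKM in control, a change of -1.13 (SE 0.20, adjusted p = 0.00151). CRK24 had 1.66, 0.601 and 0.847 FPKM in cold once, against 3.05, 2.68 and 3.77 FPKM in control, a change of -1.06 (SE 0.25, adjusted p = 0.00606). Neither gene had overlapping groups. CRK15 had 3.76, 0.881 and 2.06 FPKM in cold once, against 6.87, 3.73 and 6.52 FPKM in control, and its change of -1.12 (SE 0.38, adjusted p = 0.0331) was called although the groups overlapped. CRK10, the abundant salicylic acid gene, had 47.6, 38.1 and 51.6 FPKM in cold once, against 84.2, 60.3 and 75.7 FPKM in control, a change of -0.67 (SE 0.20, adjusted p = 0.0203). CRK11, which overlaps CRK10, had 6.91, 2.99 and 5.44 FPKM in cold once, against 9.8, 6.37 and 8.84 FPKM in control, and missed the threshold (change -0.65, adjusted p = 0.0712). The calls of CRK10 and CRK15 were lost without control library 1 (adjusted p = 0.0736 and 0.102), control library 3 (0.0606 and 0.0963) or cold-once library 2 (0.071 and 0.108), and that of CRK15 also without cold-once library 3 (0.0714). CRK11 was called without cold-once library 1 (adjusted p = 0.0304).

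CRK21 and CRK42 rose. CRK21, in the large cluster, had 28.0, 29.7 and 26.3 FPKM in cold once, against 16.8, 14.7 and 17.4 FPKM in control, a change of 0.75 (SE 0.14, adjusted p = 0.0023). CRK42, the only member on chromosome 5, had 11.3, 11.6 and 12 FPKM in cold once, against 5.39, 4.06 and 4.71 FPKM in control, a change of 1.15 (SE 0.18, adjusted p = 0.000634). Their libraries lay close together within each group and far apart between groups.

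**Figure D2:**
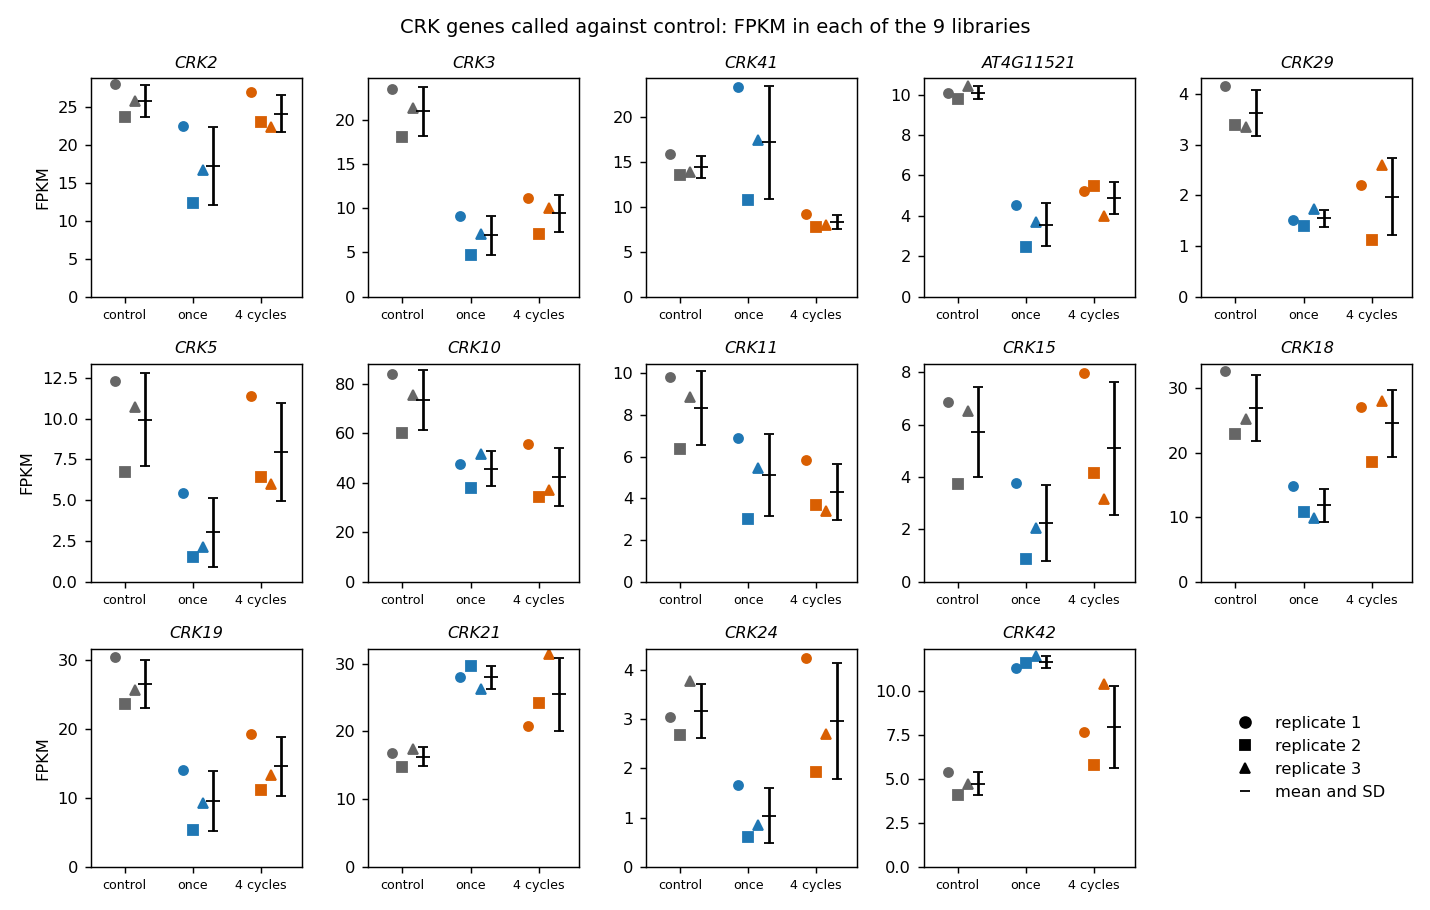
FPKM (vertical axes, linear, from 0) of the 14 CRK genes called in either comparison with control, in each of the 9 libraries, with marker shapes for replicate numbers and bars for the mean and SD of 3 libraries per group (control, cold once, 4 cycles of cold). CRK21 lay between 26.3 and 29.7 FPKM in cold once and above 14 FPKM in control, while CRK3 lay below 12 FPKM in both cold groups and above 18 FPKM in control.

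Other members with a known role were not called after 1 cycle. CRK36, which limits abscisic acid responses together with ARCK1, had 8.24, 1.66 and 3.1 FPKM in cold once, against 12.2, 5.25 and 7.52 FPKM in control (change -0.94, SE 0.47, adjusted p = 0.123). Without cold-once library 1, CRK36 was called (adjusted p = 0.0182), and so was CRK4 (adjusted p = 0.0369). CRK6 and CRK7, which limit damage by extracellular reactive oxygen such as ozone, had changes of -0.39 (SE 0.62) and 0.19 (SE 0.60). CRK13, whose overexpression raises salicylic acid, changed by -0.11 (SE 0.29), and CRK28, a partner in the FLS2 and BAK1 receptor complex, by -0.28 (SE 0.25). CRK6 had 34.2, 7.12 and 10.8 FPKM and CRK7 had 11.8, 1.88 and 4.26 FPKM in cold once, so libraries of 1 group differed several-fold. CRK13 and CRK28 are named here although their levels were low, as are AT4G11530 and the members outside the naming rule below, all chosen after their values were seen.

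**Figure D3:**
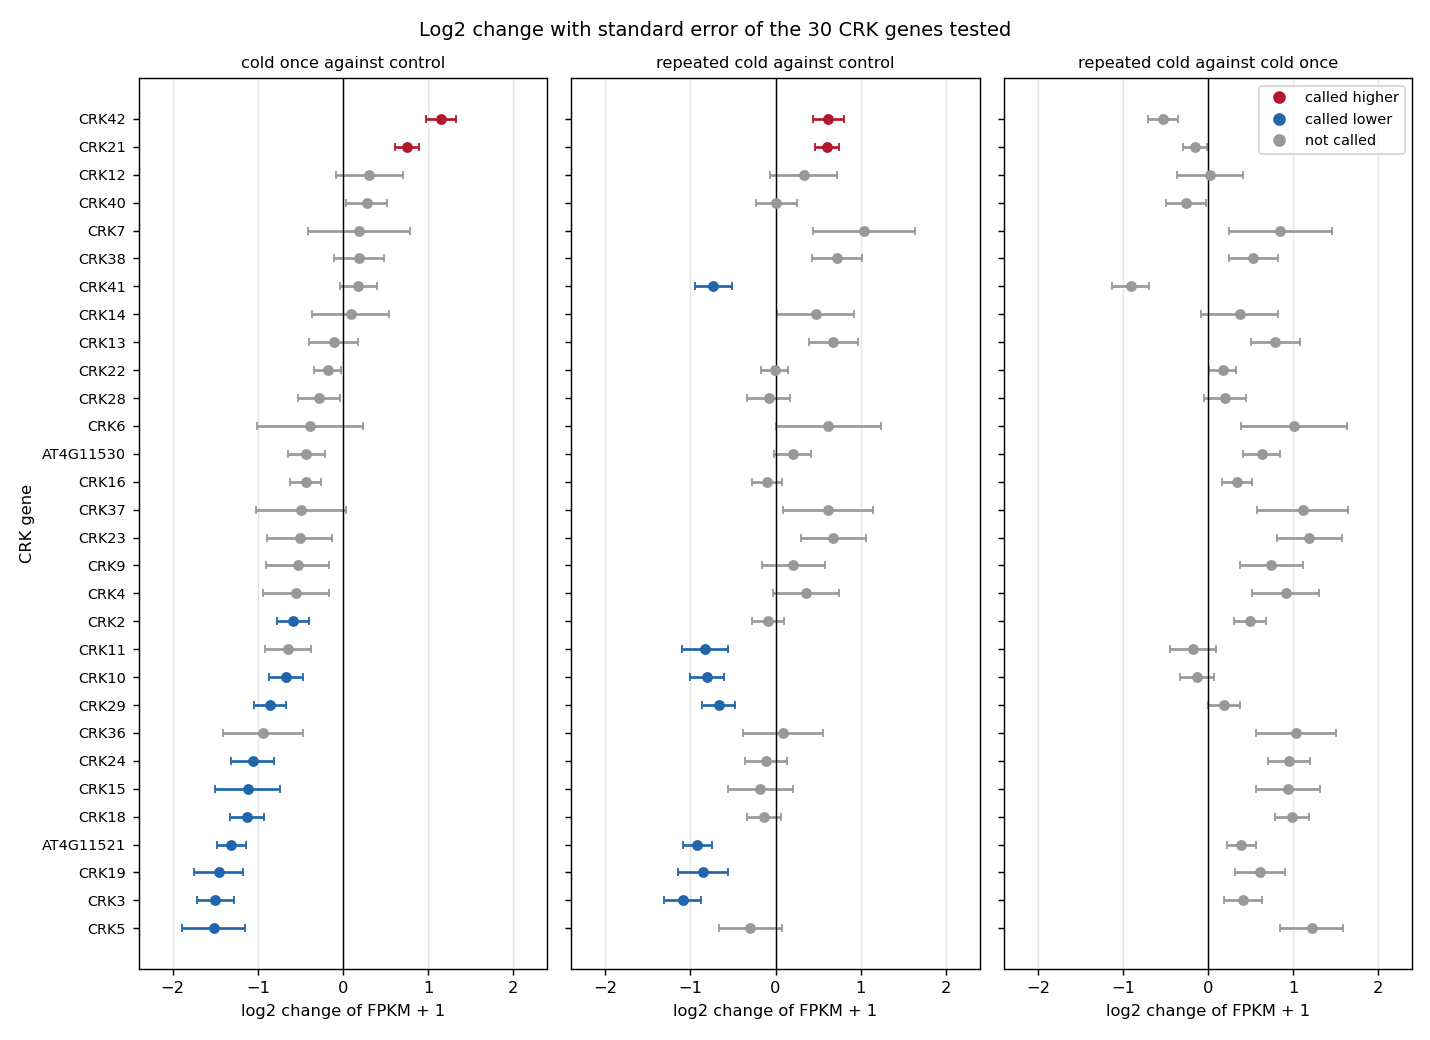
Change with SE (horizontal axes, differences of log2(FPKM + 1)) of the 30 tested CRK genes in the 3 comparisons, 1 gene per line in the order of the change after 1 cycle. The 10 genes called lower after 1 cycle lie between -1.52 and -0.59, and no gene was called between repeated cold and cold once.

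Repeated cold was compared with control to see which members differed after 4 cycles. Of the 30 tested members, 7 were lower and 2 higher (23.3% and 6.67%), while 24.9% of all tested genes were called lower and 14.6% higher, 39.5% in either direction. The median change of the tested members was 0.00 on the log2 scale, against -0.10 over all tested genes, and their changes ran from -1.09 to 1.04. By the unadjusted p, 11 members lay under 0.05, against 48.8% of all tested genes. The libraries did not overlap for 7 members that were lower and 3 that were higher, against 31.7% and 19.0% of all tested genes. This comparison and the previous one share the control libraries, so their values are given side by side and their likeness is no separate result.

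CRK3, CRK10, CRK19, CRK29 and AT4G11521 were lower than control in both comparisons. CRK3 had 11.2, 7.13 and 10 FPKM in repeated cold, a change of -1.09 (SE 0.22, adjusted p = 0.00439) from the control values given above. AT4G11521 had 5.23, 5.46 and 3.99 FPKM in repeated cold, a change of -0.92 (SE 0.17, adjusted p = 0.0031). CRK10 had 55.6, 34.2 and 37.2 FPKM in repeated cold, a change of -0.80 (SE 0.20, adjusted p = 0.0122). None of these 3 genes had a repeated-cold library within the range of its control libraries. CRK19 had 19.3, 11.1 and 13.3 FPKM (change -0.85, SE 0.29, adjusted p = 0.045) and CRK29 had 2.2, 1.12 and 2.61 FPKM in repeated cold (change -0.67, SE 0.19, adjusted p = 0.0212). For both genes, every repeated-cold library lay below every control library. The call of CRK19 was lost without control library 1 (adjusted p = 0.128), 2 (0.0696) or 3 (0.0945), without cold-once library 3 (0.0626) and without repeated-cold library 2 (0.127) or 3 (0.11). That of CRK29 was lost without control library 1 (adjusted p = 0.0739).

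CRK11 and CRK41 were called lower after 4 cycles and not after 1. CRK11, with the run of W-box cores printed above, had 5.86, 3.67 and 3.39 FPKM in repeated cold, against 9.8, 6.37 and 8.84 FPKM in control, a change of -0.83 (SE 0.27, adjusted p = 0.0373). CRK41 had 9.2, 7.8 and 8.0 FPKM in repeated cold, against 15.9, 13.6 and 13.9 FPKM in control, a change of -0.73 (SE 0.22, adjusted p = 0.029). In cold once CRK41 had 23.4, 10.8 and 17.5 FPKM, which enclosed the control values. Without cold-once library 2 it was called higher in cold once than in control (change 0.46, adjusted p = 0.0329). Both calls were lost without control library 1 (adjusted p = 0.117 for CRK11 and 0.0891 for CRK41) or 3 (0.101 and 0.0655), and without repeated-cold library 2 (0.094 and 0.0709) or 3 (0.115 and 0.0756). CRK11 also lost its call without cold-once library 3 (adjusted p = 0.0511) and CRK41 without control library 2 (adjusted p = 0.0555).

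CRK21 and CRK42 were higher again. CRK21 had 20.8, 24.2 and 31.4 FPKM in repeated cold, a change of 0.60 (SE 0.14, adjusted p = 0.0102), and CRK42 had 7.65, 5.79 and 10.4 FPKM, a change of 0.62 (SE 0.18, adjusted p = 0.0207). In both genes every repeated-cold library lay above every control library. The call of CRK42 was lost without control library 2 (adjusted p = 0.0687) or 3 (adjusted p = 0.0559) and without repeated-cold library 3 (adjusted p = 0.0526). The 5 members called lower after 1 cycle but not after 4 were CRK2, CRK5, CRK15, CRK18 and CRK24, with changes from control of -0.09, -0.30, -0.18, -0.14 and -0.11 in repeated cold. CRK18, for example, had 27.1, 18.6 and 28.0 FPKM in repeated cold, a range that overlapped that of control.

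CRK6 and CRK7, which limit damage by reactive oxygen, had their highest group means in repeated cold without a call. That was not particular to them, and CRK4, CRK14, CRK23 and CRK37 were among the other uncalled members with this order. CRK7 had 19.9, 7.14 and 5.66 FPKM in repeated cold, against 6.01, 1.92 and 5.39 FPKM in control (change 1.04, SE 0.60, adjusted p = 0.198). CRK6 had 55.2, 24.6 and 18.0 FPKM in repeated cold, against 29.1, 8.68 and 25 FPKM in control (change 0.62, SE 0.62, adjusted p = 0.462). CRK13 had 5.66, 2.23 and 2.85 FPKM in repeated cold, against 2.41, 1.05 and 1.89 FPKM in control (change 0.68, SE 0.29, adjusted p = 0.0971). The groups of all 3 genes overlapped. CRK38 had 2.64, 1.0 and 0.763 FPKM in repeated cold, against 0.656, 0.22 and 0.416 FPKM in control, with no overlap but no call (change 0.72, SE 0.29, adjusted p = 0.0729).

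Along the large cluster, calls changed from gene to gene. CRK21 was higher in both comparisons while its neighbour CRK22 changed by -0.18 and -0.01 (SE 0.16 each) and was not called. CRK18 and CRK19 lie next to each other on opposite strands with their starts facing, and CRK19 was called in both comparisons while CRK18 was called after 1 cycle. CRK12, CRK13 and CRK14, which lie between CRK11 and CRK15, changed by 0.31, -0.11 and 0.09 after 1 cycle, none of which was called.

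**Figure D4:**
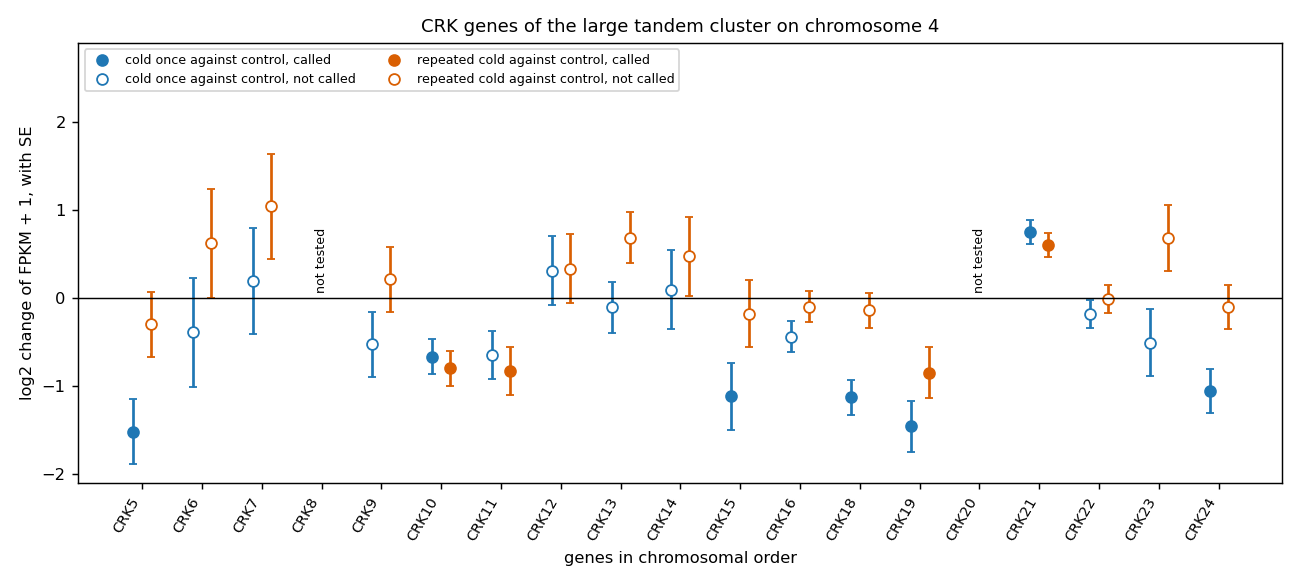
Change with SE (vertical axis, difference of log2(FPKM + 1) from control) of the 19 genes of the tandem cluster on chromosome 4 in chromosomal order (horizontal axis), after 1 cycle and after 4 cycles, with filled markers for called genes. CRK8 and CRK20 were not tested, and CRK21 at 0.75 and 0.60 was the only gene of the cluster called higher.

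Repeated cold was compared with cold once to see whether 4 cycles gave another level than 1. No member was called higher or lower, while 1.27% of all tested genes were called in either direction (0.738% higher and 0.536% lower). By limma's unadjusted p, 11 members lay under 0.05, against 19.8% of all tested genes, and the limma-voom fit on recovered reads also called 0 members. The median change of the tested members was 0.51, against 0.06 over all tested genes, and 24 of 30 members had a positive change. Positive changes were not counted over all tested genes. The libraries did not overlap for 5 members that were higher and 2 that were lower in repeated cold, against 13.9% and 9.92% of all tested genes.

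The member nearest to the threshold was CRK18, with 27.1, 18.6 and 28.0 FPKM in repeated cold, against 14.8, 10.8 and 9.96 FPKM in cold once, a change of 0.99 (SE 0.20, adjusted p = 0.0532). Among the other scalings, the filters and the fits without 1 library, it was called under median-of-ratios scaling (adjusted p = 0.0474), with a minimum of 5 FPKM (adjusted p = 0.047), and without cold-once library 1 (adjusted p = 0.0445) or repeated-cold library 2 (adjusted p = 0.0457). CRK5 had 11.4, 6.39 and 6.0 FPKM in repeated cold, against 5.46, 1.52 and 2.11 FPKM in cold once (change 1.22, SE 0.37, adjusted p = 0.12). CRK24 had 4.24, 1.92 and 2.7 FPKM in repeated cold, against 1.66, 0.601 and 0.847 FPKM in cold once (change 0.95, SE 0.25, adjusted p = 0.0869). These 3 genes and the less abundant CRK13 and CRK23 were the 5 whose repeated-cold libraries all lay above their cold-once libraries. CRK41 and CRK42 were the 2 with all libraries lower, at changes of -0.91 (SE 0.22, adjusted p = 0.0768) and -0.53 (SE 0.18, adjusted p = 0.147). Among the fits without 1 library, CRK5 was called without cold-once library 1 (adjusted p = 0.047) and CRK41 without cold-once library 2 (adjusted p = 0.0218).

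Members of the family moved together between libraries of 1 group. Of the 30 tested members, 26 had their highest value of the control group in control library 1, 24 had that of cold once in library 1 and 23 had that of repeated cold in library 1. Of all tested genes, 30.4%, 36.0% and 38.1% had their highest value in these libraries. The lowest value lay in control library 2 for 27 members and in cold-once library 2 for 26, while in repeated cold it lay in library 2 for 15 and in library 3 for 14. Summed over the 40 members, FPKM was 522, 359 and 453.9 in the 3 control libraries, 459.7, 232.2 and 315.7 in cold once and 584.8, 353.3 and 372.6 in repeated cold. Within a group, the median SD of log2(FPKM + 1) of the tested members was 0.245 in control, 0.40 in cold once and 0.41 in repeated cold, against 0.142, 0.131 and 0.197 over all tested genes. In cold once the highest library exceeded the lowest 7.4-fold for CRK37, 6.28-fold for CRK7, 4.96-fold for CRK36 and 4.8-fold for CRK6. CRK21, CRK22 and CRK42 had the smallest fold spread in cold once, with libraries from 26.3 to 29.7, 9.8 to 11.2 and 11.3 to 12 FPKM. In repeated cold their highest library exceeded the lowest 1.51-, 1.67- and 1.8-fold. The spread between libraries is part of the errors given above.

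Genes of the salicylic acid pathway differed between the same libraries. Of 20 genes for salicylic acid synthesis and signalling and for WRKY and CAMTA factors, 15, 16 and 19 had their highest value of the group in control library 1, cold-once library 1 and repeated-cold library 1. The pattern was not particular to that list. Of the 15 tested reactive oxygen and receptor partners described below, 12, 11 and 12 had their highest value in these libraries. PR1, the classical marker gene of salicylic acid signalling, had 199, 30.7 and 143 FPKM in control, 266, 18.5 and 51.7 FPKM in cold once and 405, 326 and 113 FPKM in repeated cold. PR1 is named for its marker role and was chosen after its values were seen. The 7 flower markers ran the other way: 7, 6 and 5 of them had their lowest value of the group in these same libraries. The part of salicylic acid signalling or of tissue composition in the CRK levels was not tested.

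**Figure D5:**
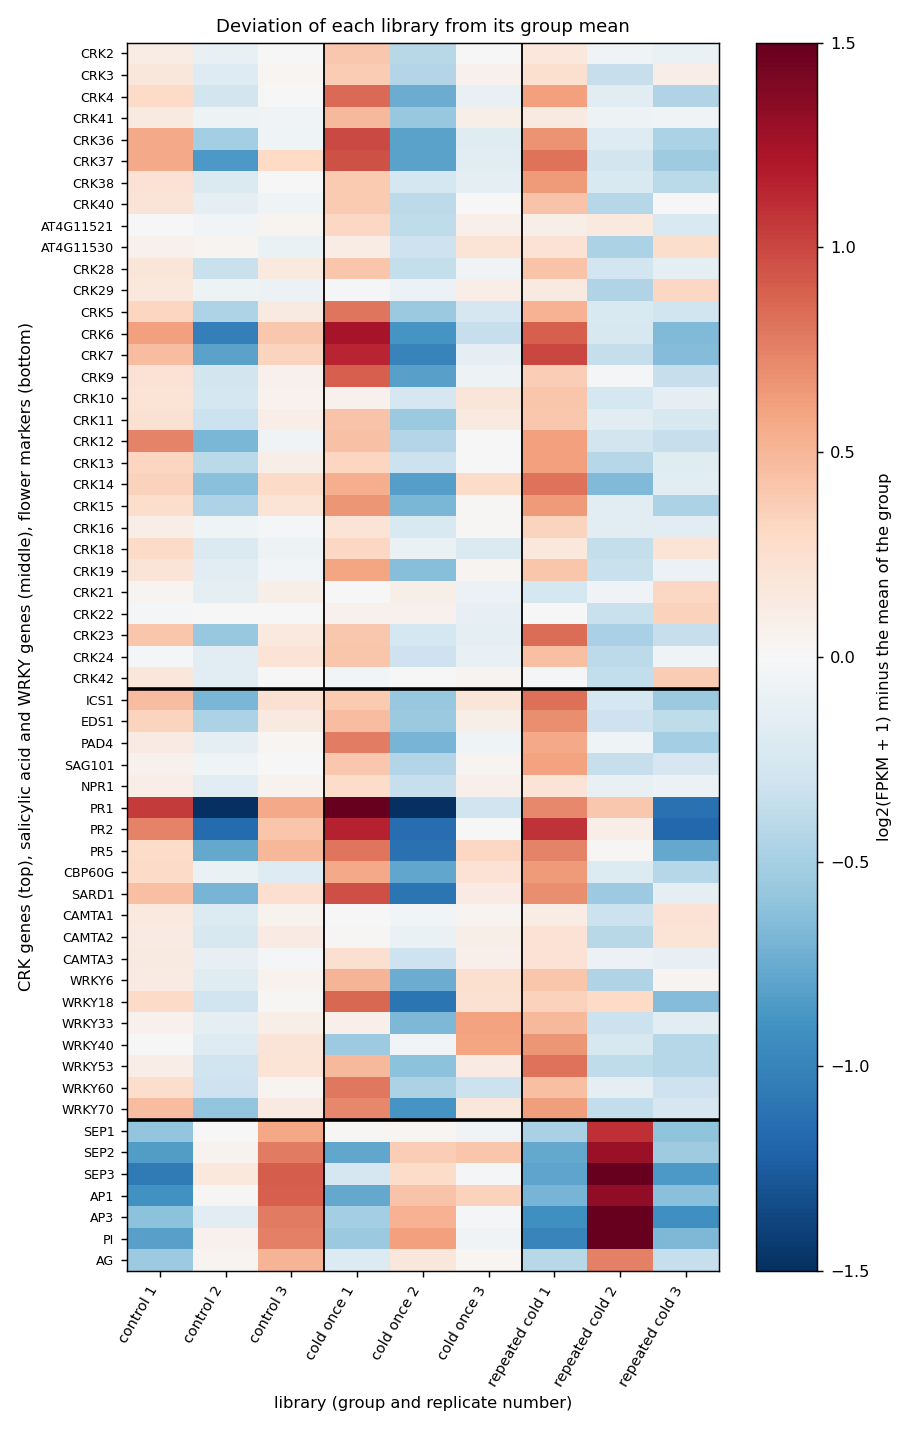
Deviation of each library from the mean of its group on the log2(FPKM + 1) scale (colour, red above and blue below the mean, with the strongest colours also standing for values past the ends of the scale) for the 30 tested CRK genes (top), 20 salicylic acid and WRKY genes (middle) and 7 flower markers (bottom) in the 9 libraries (horizontal axis). In control, 26 of 30 CRK genes are highest in library 1 and 27 are lowest in library 2.

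Genes known to act with or above the family were counted from lists of relatives, partners and regulators. The plasmodesmata-located proteins (PDLPs) share the DUF26 domains of CRKs and lack a kinase. In cold once, 3 of 7 tested PDLP genes were higher and 2 lower than control (42.9% and 28.6%, against 18.7% and 33.6% of all tested genes). PDLP2 had 24.4, 32.3 and 27.3 FPKM in cold once, against 7.27, 7.31 and 6.9 FPKM in control (change 1.82, SE 0.13, adjusted p = 8.76e-06), and 16.6, 19.7 and 21.5 FPKM in repeated cold (change 1.31 from control, adjusted p = 8.99e-05). PDLP5, known to restrict plasmodesmata in response to salicylic acid, had 4.6, 1.27 and 3.22 FPKM in cold once, against 9.17, 7.33 and 8.48 FPKM in control (change -1.30, SE 0.29, adjusted p = 0.00443). PDLP1 fell in both comparisons, by 0.77 after 1 cycle (adjusted p = 0.00166) and by 0.79 after 4 cycles (adjusted p = 0.00228). PDLP7 and PDLP8 made up the 3 higher genes after 1 cycle with changes of 0.54 and 0.39 (adjusted p = 0.0314 and 0.0462). PDLP2 and PDLP1 were the only PDLP genes called after 4 cycles. No PDLP gene was called between repeated cold and cold once.

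Partners in reactive oxygen production and receptor complexes were counted in the same way. Of 15 tested genes, 3 were higher and 5 lower in cold once than in control (20% and 33.3%, close to the 18.7% and 33.6% of all tested genes), and 2 were higher and 1 lower in repeated cold than in control (13.3% and 6.67%, against 14.6% and 24.9% of all tested genes). RBOHD, the main NADPH oxidase of immunity and a partner of CRK2, had 38.8, 29.9 and 52.8 FPKM in cold once, against 69.3, 58.1 and 66.2 FPKM in control (change -0.69, SE 0.21, adjusted p = 0.0222). It had 40.3, 26.3 and 29.0 FPKM in repeated cold (change -1.02 from control, adjusted p = 0.00515). RBOHF, another oxidase with a role in abscisic acid signalling, had 9.88, 8.34 and 7.86 FPKM in cold once, against 4.19, 2.78 and 4.07 FPKM in control (change 1.06, SE 0.16, adjusted p = 0.000588), and was higher in repeated cold as well (change 0.62, adjusted p = 0.0137). The abscisic acid kinase OST1 was higher after 1 cycle (change 0.65, adjusted p = 0.00246) and after 4 cycles (change 0.36, adjusted p = 0.0475), and CPK28 was higher after 1 cycle (change 0.83, adjusted p = 0.026). The ubiquitin ligase PUB12 (change -0.80, adjusted p = 0.00775) and the receptors BAK1, FLS2 and EFR (changes -0.44, -0.67 and -0.66, adjusted p = 0.0373, 0.0272 and 0.0437) fell after 1 cycle. Under median-of-ratios scaling PUB12 was the only one of the 5 still called lower, and under quantile normalization PUB12 and RBOHD were. No gene of the list was called between repeated cold and cold once.

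Among the 20 salicylic acid, WRKY and CAMTA genes, 1 was higher and 4 lower in cold once than in control (5% and 20%), and 4 were higher and 1 lower in repeated cold than in control (20% and 5%), beside the shares of all tested genes given above. WRKY18, a regulator of defence genes, had 96.2, 24.0 and 61.8 FPKM in cold once, against 10.7, 6.76 and 8.68 FPKM in control (change 2.48, SE 0.46, adjusted p = 0.00176), and 42.5, 40.9 and 20.8 FPKM in repeated cold (change 1.83 from control, adjusted p = 0.0116). WRKY53 had 16.0, 6.93 and 12.2 FPKM in cold once, against 63.9, 48.4 and 68.7 FPKM in control (change -2.32, SE 0.36, adjusted p = 0.000717), and WRKY33 fell as well (change -1.42, adjusted p = 0.00414). CAMTA3, a repressor of salicylic acid immunity, was lower after 1 cycle (change -0.97, adjusted p = 0.000897) and after 4 cycles (change -0.95, adjusted p = 0.00157). NPR1, a salicylic acid receptor, was lower after 1 cycle (change -0.53, adjusted p = 0.0249), a call that both other scalings ended. WRKY60 had 25.8, 16.9 and 14.8 FPKM in repeated cold, against 8.83, 3.09 and 3.54 FPKM in cold once (change 1.79, SE 0.33, adjusted p = 0.042), and was the only gene of the list called between the cold groups, a call lost without the filter on low levels. WRKY60, SARD1 and WRKY40 were higher in repeated cold than in control, with changes of 1.85, 2.07 and 1.16 (adjusted p = 0.00238, 0.0125 and 0.0205). PDLP8, CPK28, BAK1, FLS2, EFR, NPR1 and WRKY40 are named beyond the rule for list genes, after their values were seen.

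FPKM depend on the total of each library, and another scaling moved the median of all genes. Under median-of-ratios scaling the median change of all tested genes moved to -0.01 after 1 cycle and to 0.01 after 4 cycles, against -0.16 and -0.10 as deposited, and lower calls made up 49.4% and 49.2% of all calls, against 64.3% and 63.0%. Relative to the median of all genes, the median of the tested members lay at -0.35 after 1 cycle under that scaling, against -0.34 as deposited, and at 0.11 after 4 cycles, against 0.10. Of the members, 7 were then lower after 1 cycle (CRK2, CRK10 and CRK15 lost their calls) and 4 after 4 cycles (CRK11, CRK19 and CRK41 lost theirs). These were 23.3% and 13.3% of the tested members, against 25% and 18.9% of all tested genes called lower under that scaling. Lower calls then made up 66.7% of the member calls after 4 cycles, against 77.8%. No called member changed sign under median-of-ratios scaling or quantile normalization. Under at least 1 of these scalings the sign turned for CRK13 and CRK22 after 1 cycle, for CRK2, CRK22 and CRK28 after 4 cycles and for CRK12 between the cold groups, all of them uncalled changes.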

How the data were processed

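RNA from stems and leaves was sequenced in 9 libraries, 3 per group, made from 0.5 µg of total RNA with an RNeasy extraction and a SMARTER mRNA-Seq kit, per the labels' protocols. The authors deposited 1 table of FPKM values, with 1 column per library. Per the submitters' processing notes the tools included TopHat, Cufflinks and Cuffdiff, with no versions given. Genome build and strandedness are not given in the sources used here. Gene starts and ends in the table equalled those of TAIR10.1 for 25094 of 25099 loci found there and for all 40 members, so positions are on that build.

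Low FPKM values lie on steps that scale with gene length. Whole reads could be recovered from them for 25308 genes (99.95%), including all 40 members, with a tolerance of 0.01 read, and depth is the library size these steps imply. At 1 FPKM a gene had about 30 reads (median), which gives 18.3% counting error. With no molecular identifiers, floors cover counting error only.

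FPKM were used as deposited, as log2(FPKM + 1). Genes with at least 1 FPKM in at least 3 of 9 libraries (17740) were fitted with 1 mean per group in R 4.3.3 with limma 3.58.1, using lmFit and a trended eBayes (3.21 prior degrees of freedom). Calls are at a Benjamini-Hochberg adjusted p under 0.05 over all genes tested. Any difference among the groups was tested with limma's moderated F-test. Tables and figures used Python 3.11.15, numpy 2.4.6, pandas 2.3.3 and matplotlib 3.10.9. The procedure was tested on simulated data. No pair of libraries held identical values. Alternatives were other pseudocounts, filters and scalings, fits of only the compared groups, without a mean trend or with a replicate block, and leaving out each library. A limma-voom fit on the recovered reads was added after seeing the data. It called 2 members higher and 11 lower after 1 cycle, and 2 higher and 7 lower after 4 cycles. Over all tested genes, its counts of higher and lower calls in these comparisons were close to those of the values reported. In the values reported, 18.7% of all tested genes were higher and 33.6% lower after 1 cycle, and 14.6% and 24.9% after 4 cycles.

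Per comparison, up to 8 called members in each direction were named by size of change, with members of known role that were called or reached a mean of 5 FPKM, the 3 most abundant members, the members below the filter and up to 4 genes with the smallest p of each list. The members and lists were chosen with earlier results of these data known. Upstream windows were read from the TAIR10.1 RefSeq genome.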

Additional observations from a re-analysis of the deposited data

How the results depend on the processing

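Of the 21 calls of named members, 13 held under every alternative that tested the gene: CRK10 after 4 cycles, CRK5, CRK18, CRK19, CRK24, CRK29 and CRK42 after 1 cycle, and CRK3, CRK21 and AT4G11521 after 1 and 4 cycles. CRK24 and CRK29 were not tested with a minimum of 5 FPKM. No called change reversed. After 4 cycles, 4 members were lower under median-of-ratios scaling, against 7 in the values reported. Between repeated cold and cold once, 1 member was higher under that scaling and with a minimum of 5 FPKM. In that comparison 131 genes were higher and 95 lower in the values reported. The counts were 85 higher with a pseudocount of 5, 58 higher and 54 lower without the filter, and 2 higher and 3 lower when only these 2 groups were fitted. Under median-of-ratios scaling 245 genes were lower, and under quantile normalization 173. The cause was not tested.

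Leaving out 1 library gave 2 to 3 members higher and 7 to 15 lower after 1 cycle. It gave 1 to 3 members higher and 3 to 7 lower after 4 cycles, and 0 to 2 higher and 0 to 1 lower between the cold groups. Over all tested genes it gave 2651 to 3570 higher and 4918 to 6418 lower after 1 cycle. After 4 cycles it gave 1970 to 2731 genes higher and 3298 to 4348 lower. It gave 9 to 17 members by the F-test, which called 12 of 30 in the values reported (49.4% of all genes), and between the cold groups 12 to 136 genes higher and 5 to 85 lower.

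Same-numbered libraries deviated from their group means with correlations of 0.225, 0.368 and 0.204 for number 1, 0.223, 0.463 and 0.103 for number 2, and 0.0287, 0.0358 and -0.108 for number 3, so the numbers were not taken to pair the libraries. As a hint from the data, 5 of 9 libraries correlated best with their own number in both other groups. With a replicate block, 6 members were higher after 4 cycles (CRK7, CRK13, CRK21, CRK23, CRK38 and CRK42). Of these 6 members, only CRK21 and CRK42 were called in the values reported. Between the cold groups, 6 members were higher (CRK5, CRK13, CRK18, CRK23, CRK24 and CRK36) and 1 lower (CRK41) in repeated cold. Their adjusted p ran from 0.0185 to 0.0411, and no member was called there in the values reported. CRK5, CRK18 and CRK41 were also called there in some other fits without the block, as given above. The blocked F-test called 22 members, and its calls over all genes were not counted. With the block, 473 genes were higher and 231 lower between the cold groups.

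The planned edgeR and DESeq2 fits on recovered reads were not run. At 30 reads near 1 FPKM, counting error limits the low members, and 3 libraries per group limit all of them.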
